A study of Mus musculus with 12 samples.

Results

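Interferon-stimulated genes were followed in monocytic myeloid-derived suppressor cells (M-MDSCs) that had been sorted from bone marrow of mice at a young and an old age. The set held 44 genes, taken from the deposited count table by their symbols, out of 23420 genes in that table. All 44 were present and 39 of them had enough counts to be tested, among 9742 genes tested in all. Ifi205, Oas1g, Mx2, Gbp3 and Ifi44 were below the filter on low counts. None of the 39 tested members passed that filter through the aged mice alone. Mx1 reached the level it asks for in 5 young mice and 1 aged mouse, and so passed mainly through the young mice.

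M-MDSCs are immature monocyte-like cells that suppress T cells and can form osteoclasts. Interferons are secreted proteins that warn cells of viral infection. Type I interferons bind the receptor pair IFNAR1 and IFNAR2, whose kinases JAK1 and TYK2 activate transcription factors, among them STAT2, and these join IRF9 in a complex that binds a DNA element called the interferon-stimulated response element (ISRE) near the start of its target genes. The products of these targets sense viral RNA and DNA, degrade RNA, block viral entry, tag proteins with ISG15 and restrain the signal itself. Myeloid cells also express many of these genes at a low level without infection.

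RNA was sequenced from 12 male C57BL/6JNIA mice of the NIA colony, 6 young (6 months) and 6 aged (24 months), with 1 library for each mouse. The cells had been sorted by flow cytometry as CD11b+Ly6G-Ly6Chi. The labels give the tibia as tissue and bone marrow as cell type, and name no transgene or treatment. In bulk RNA, more cells with a transcript and more of it in each cell cannot be told apart.

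Library totals ran from 8737941 to 16300374 fragments in aged mice and from 4613239 to 9079237 in young mice, so that low genes were measured with less counting error in the aged group. The sort was checked against marker lists. Itgam, which encodes CD11b, lay at 617 CPM (counts scaled to library size by edgeR) per kilobase of exon in aged and 720 in young mice, and the Ly6C gene Ly6c2 at 906 and 624. Ly6c2 was called higher in aged mice with no overlap (log2 fold change 0.54, edgeR adjusted p = 0.00265), but not with a correction for exon length (0.12, edgeR adjusted p = 0.283). The scarce Ly6c1 was also called higher, but not with that correction or without young replicates 5 and 6. Csf1r, the receptor of monocyte growth factor, reached 36.4 and 34.6 and the chemokine receptor Ccr2 8.69 and 10.3 on the same scale. The neutrophil granule gene Ngp stood at 34086 and 26615, so neutrophil granule transcripts exceeded the monocyte markers in both ages, and 4 of 8 neutrophil markers (Ngp, Camp, Retnlg and Stfa2l1) were called higher in aged mice, beside 22.4% of all genes tested, and none lower. Without young replicates 5 and 6, and also with a correction for exon length, Stfa2l1 alone of these stayed called. Camp was not called without aged replicate 5 either, though its log2 fold change was 0.46, compared with 0.47 from all mice. Of 10 resident macrophage markers, 9 were tested and all 9 were called higher, with a summed level of 1617 CPM in aged replicate 1, 628 to 854 CPM in the other 5 aged mice and 414 to 581 CPM in young mice. Emr1 and Slc40a1 of these were not called without young replicates 5 and 6. Of the progenitor markers 3 of 4 tested were called higher (Mpo, Elane and Prtn3), and of the non-classical monocyte markers Cd36 was called higher and Nr4a1, Ace and Treml4 lower. None of these 3 falls was called without young replicates 5 and 6, and that of Treml4 went from -1.13 to -0.47 on the log2 scale. Clec9a of conventional dendritic cells was 5.47-fold lower and the proliferation gene Mki67 4.02-fold lower, both with no overlap, and Top2a was called lower, but not without aged replicate 5, without young replicates 5 and 6 or with the length correction. Itgam, called lower (log2 fold change -0.22), lost its call in the same 3 fits, with values of -0.22, -0.21 and -0.05 in that order. Elane and Runx2 lost theirs with the length correction. None of the tested B cell (1 of 6), plasma cell (1 of 4) and T and NK cell (2 of 6) markers was called. Cd79b of B cells (1.10, edgeR adjusted p = 0.0568) was called higher without aged replicate 5 (1.29, edgeR adjusted p = 0.0196), but not without young replicates 5 and 6. B cell markers summed to 2.40 to 12.5 CPM in aged and 2.14 to 3.90 CPM in young mice. Plasma cell markers summed to 8.51 to 72.6 and 9.63 to 35.5 CPM, and aged replicate 1 was highest for both. The erythroid markers, all below the filter, summed to 0.641 to 7.68 CPM in aged and 0.102 to 0.428 CPM in young mice, with no overlap. M-MDSC is the name of the sort here, and the share of monocytic cells in it was not measured. The part of these other cells in the results below was not tested.

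Some mice stood apart from the others of their age. Aged replicate 5 had the highest value of the 6 aged mice in 35 of the 39 tested members, whereas it was highest for 18.2% of all genes tested. Measured against the mean of the young mice, its median member lay 1.28 higher on the log2 scale, compared with 0.13 to 0.50 in the other 5 aged mice. Its summed macrophage markers (628 CPM) and conventional dendritic cell markers (8.31 CPM) were the lowest of the aged mice, and its neutrophil markers (87652 CPM) and classical monocyte markers were second highest. Defining genes of plasmacytoid dendritic cells, a rich source of interferon, were at or near 0 for Siglech (at most 2 counts in any mouse), Cox6a2 (1), Klk1 (1), Cd209d (0) and Ccr9 (5), and Ly6d had at most 21 counts. Of the same list of 8 genes, Tcf4 (7.85 to 11.1 CPM in aged and 6.74 to 10.9 CPM in young mice) and Runx2 (55.0 to 74.1 and 66.5 to 88.8 CPM), which other cells also express, made up nearly all of its sum, and Runx2 was called lower. Young replicates 5 and 6 formed a pair of their own, with summed proliferation markers of 1210 and 1171 CPM against 608 to 754 CPM in the other young mice. The counts are therefore also given without aged replicate 5 and without young replicates 5 and 6, and so are named genes that lost a call in either.

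The response element itself could be read in the promoters of several members. RefSeq windows on GRCm38.p6 (the build called mm10 in the count table), from 250 bases before to 50 after the transcription start, were found by symbol for 36 of the 44 members. A core of the ISRE, GAAANNGAAA on either strand (TTTCNNTTTC on the other), was searched for. It was found in 19 of the 36 members (52.8%), and in 3.44% of 32851 windows of the same length over all genes. Printed here are the 160 bases before the start for 9 members whose values are described below, with each match in capitals. They were chosen to show matches in several families, and Ifitm6, the most abundant member per exon length, to show a window with no match.
Isg15, chr4:156200819-156200978, minus strand: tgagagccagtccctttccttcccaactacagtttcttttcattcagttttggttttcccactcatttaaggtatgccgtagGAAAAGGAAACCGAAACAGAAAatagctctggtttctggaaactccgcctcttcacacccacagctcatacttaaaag
Ifit1, chr19:34640729-34640888, plus strand: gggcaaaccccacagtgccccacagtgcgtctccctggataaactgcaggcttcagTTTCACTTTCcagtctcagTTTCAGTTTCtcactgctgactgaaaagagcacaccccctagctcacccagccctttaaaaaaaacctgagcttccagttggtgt
Ifit3, chr19:34583369-34583528, plus strand: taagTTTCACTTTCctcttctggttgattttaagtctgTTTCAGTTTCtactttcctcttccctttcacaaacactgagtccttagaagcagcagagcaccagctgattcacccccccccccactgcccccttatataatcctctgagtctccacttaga
Oas1a, chr5:120907526-120907685, minus strand: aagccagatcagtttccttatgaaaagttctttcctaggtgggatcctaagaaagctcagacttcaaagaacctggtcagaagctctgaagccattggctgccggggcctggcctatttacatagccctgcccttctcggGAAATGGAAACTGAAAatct
Oas3, chr5:120777660-120777819, minus strand: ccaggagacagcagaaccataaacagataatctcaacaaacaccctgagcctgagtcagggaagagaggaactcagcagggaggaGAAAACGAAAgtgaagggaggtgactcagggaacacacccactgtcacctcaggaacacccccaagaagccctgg
Gbp2, chr3:142620503-142620662, plus strand: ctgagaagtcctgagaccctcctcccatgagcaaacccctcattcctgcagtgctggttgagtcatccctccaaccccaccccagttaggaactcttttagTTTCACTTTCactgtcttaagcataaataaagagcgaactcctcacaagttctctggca
Rsad2, chr12:26456453-26456612, minus strand: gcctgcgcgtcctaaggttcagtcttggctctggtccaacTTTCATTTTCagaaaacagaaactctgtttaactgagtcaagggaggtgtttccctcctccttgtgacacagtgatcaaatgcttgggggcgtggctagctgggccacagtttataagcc
Ifitm2, chr7:140955962-140956121, minus strand: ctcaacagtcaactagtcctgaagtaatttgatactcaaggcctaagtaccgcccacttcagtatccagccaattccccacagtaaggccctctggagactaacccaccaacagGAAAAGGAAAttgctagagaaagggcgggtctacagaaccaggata
Ifitm6, chr7:141016893-141017052, minus strand: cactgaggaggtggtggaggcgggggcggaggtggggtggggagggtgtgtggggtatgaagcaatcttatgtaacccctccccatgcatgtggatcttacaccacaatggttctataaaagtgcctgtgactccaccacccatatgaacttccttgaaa

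In Isg15, 3 overlapping matches began 78, 72 and 66 bases before the start. The pair in Ifit1 began 104 and 85 bases before it, and the pair in Ifit3 began 156 and 122 bases before it. The pair in Oas1a overlapped and began 20 and 14 bases before the start. Single matches stood at 75 bases in Oas3, 59 in Gbp2, 120 in Rsad2 and 46 in Ifitm2. Of the members with a window, 10 of 19 that were called higher held a core, as did 5 of 11 that were tested and not called. A match in these letters is a description and not a measured binding site.

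Most of the tested members had higher transcript levels in the sorted cells of aged mice. With edgeR's quasi-likelihood test at an adjusted p of 0.05, 22 of the 39 tested members were called higher and 3 lower, and 14 were not called. Over all genes tested, 22.4% were called higher and 23.0% lower. The 22 that rose were Zbp1, Irf7, Irf9, Ifit1, Ifit3, Oas1a, Oas3, Oasl1, Oasl2, Gbp2, Ifitm1, Ifitm2, Ifitm3, Ifitm6, Isg15, Usp18, Trex1, Rsad2, Slfn2, Rtp4, Xaf1 and Trim30a. The 3 that fell were Mx1, Eif2ak2 and Samd9l. Mx1 entered the test mainly through the young mice, where it was higher, and with at least 10 counts required in every mouse 2 members were called lower. The median log2 fold change of the tested members was 0.50, and that of all genes tested was 0.01. All 6 aged mice lay above all 6 young mice for 10 members, where 9.68% of all genes did so, and below them for 1 member, Eif2ak2, where 12.1% of all genes did so.

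**Figure D1:**
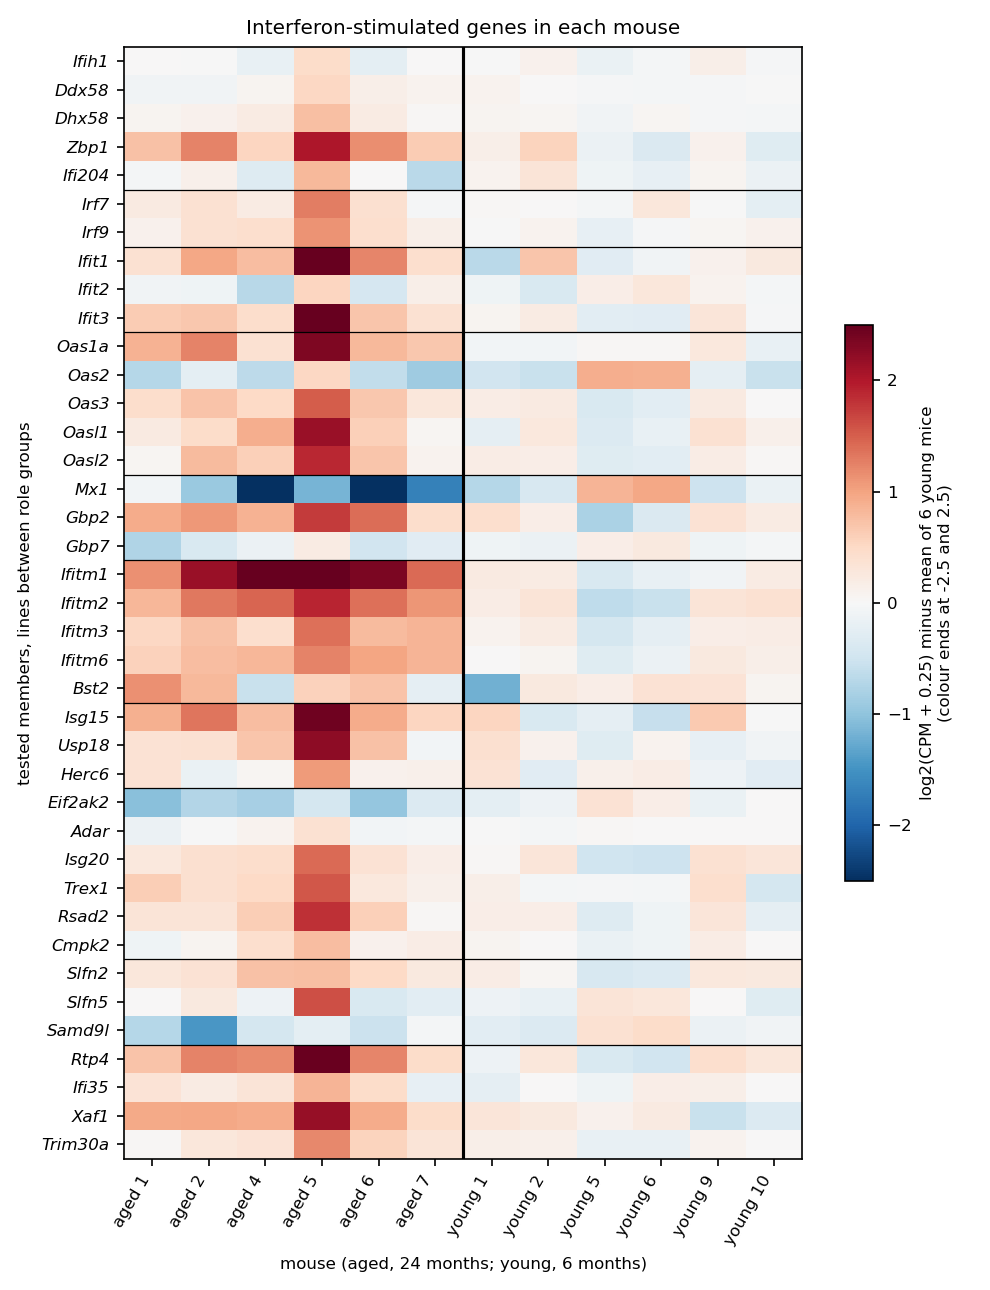
Each row is 1 of the 39 tested members, each column 1 mouse, and the colour is log2(CPM + 0.25) minus the mean of the 6 young mice (red, above that mean; blue, below it). The column of aged replicate 5 holds the highest aged value for 35 of 39 members, and Mx1, Eif2ak2, Samd9l and Oas2 are blue in most aged mice.

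The counts changed with the mice that stood apart. Without aged replicate 5, 18 members were called higher, where 20.3% of all genes were, and 5 lower, where 20.6% of all genes were. All 18 were among the 22, and Irf7, Oasl1, Usp18 and Trex1 were lost. The median log2 fold change fell to 0.37. Without young replicates 5 and 6, 12 members were called higher, where 14.1% of all genes were, and 1 lower, where 17.9% of all genes were. The 10 that lost their call were Irf7, Irf9, Ifit1, Ifit3, Oasl1, Oasl2, Usp18, Trex1, Rsad2 and Trim30a, with edgeR adjusted p-values of 0.066 to 0.141 and log2 fold changes of 0.40 to 1.2, compared with 0.47 to 1.37 from all mice. The median of the tested members was 0.51 in that fit, and Mx1 and Samd9l were no longer called lower. Transcripts of longer genes tended to be lower in aged mice, as described below, and a correction for exon length left 18 members higher, where 18.4% of all genes were, and 2 lower, where 16.5% of all genes were. Leaving out each mouse in turn, Irf7 lost its call in 8 of 12 fits, Samd9l in 6, Trex1 in 5, Oasl1 and Usp18 in 4 each and Rsad2 in 1. In all 4 fits (all mice, both reduced sets of mice, and the length correction) 10 members were called higher, where 9.80% of all genes were, namely Zbp1, Oas1a, Oas3, Gbp2, Ifitm1, Ifitm2, Ifitm6, Isg15, Rtp4 and Xaf1, and 1 member was called lower in all 4, Eif2ak2, where 10.9% of all genes were.

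Among the sensors of viral nucleic acids, only Zbp1 passed the test. ZBP1 binds Z-form RNA and DNA and starts inflammatory cell death. Its level was 10.8 to 30.8 CPM in aged mice (median 14.5) and 5.70 to 10.9 CPM in young mice (median 7.29). The lowest aged mouse lay just below the highest young mouse, so the groups overlapped by a single mouse on each side. The difference was 2.26-fold (log2 fold change 1.18 ± 0.25 SE, n = 6 and 6, edgeR adjusted p = 0.00184) and stayed at 0.91 on the log2 scale without aged replicate 5 (edgeR adjusted p = 0.00196). The RNA helicases that detect viral RNA in the cytosol did not pass the test. Ddx58, which encodes RIG-I and was the highest sensor per exon length, lay at 105 to 161 CPM in aged and 108 to 120 CPM in young mice (log2 fold change 0.13 ± 0.09, edgeR adjusted p = 0.275). Ifih1, which encodes MDA5, had a log2 fold change of 0.03 ± 0.11 and Dhx58, which encodes LGP2 and tunes the other helicases, 0.25 ± 0.11 (edgeR adjusted p = 0.0839), which was called with upper quartile factors and after thinning. Ifi204, of the DNA-binding IFI200 family, had 0.05 ± 0.19. For its relative Ifi205 there were at most 5 counts in any mouse, and it was not tested.

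Both transcription factors of the set rose. IRF7 amplifies the production of type I interferon. Irf7 lay at 45.9 to 114 CPM in aged mice (median 57.9) and at 39.5 to 57.0 CPM in young mice (median 46.9), a 1.39-fold difference (log2 fold change 0.47 ± 0.18, edgeR adjusted p = 0.0441). That call was close to the threshold and was lost in 8 of the 12 fits without 1 mouse. Among them was the fit without aged replicate 5 (log2 fold change 0.24, edgeR adjusted p = 0.0726), a mouse that had 114 CPM with the next aged mouse at 62.3 CPM. Without young replicates 5 and 6 the value was 0.51 (edgeR adjusted p = 0.0717). Irf9, the DNA-binding partner of STAT2, lay at 76.8 to 156 CPM in aged and 62.0 to 77.1 CPM in young mice (medians 94.6 and 72.6). Its log2 fold change was 0.48 ± 0.14 (edgeR adjusted p = 0.0134) and 0.31 without aged replicate 5 (edgeR adjusted p = 0.00981), and it was not called without young replicates 5 and 6 (0.40, edgeR adjusted p = 0.072). The lowest aged mouse was again within the young range by a narrow margin.

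The IFIT proteins bind viral RNA that lacks the host's cap marks and block its translation. Their genes lie side by side on chromosome 19, and they differed among themselves. Ifit1 rose 2.49-fold, from 3.32 to 8.99 CPM in young mice (median 5.49) to 7.13 to 36.1 CPM in aged mice (median 10.2; log2 fold change 1.31 ± 0.38, edgeR adjusted p = 0.012). Ifit3 lay at 3.69 to 21.9 CPM in aged and 2.24 to 3.46 CPM in young mice (medians 4.5 and 2.82), and all aged mice were above all young mice. Its log2 fold change was 1.37 ± 0.45 (edgeR adjusted p = 0.0211). A single mouse carried much of both values. Aged replicate 5 had 21.9 CPM of Ifit3 and the other 5 aged mice had at most 4.63 CPM, and without it the log2 fold changes fell to 0.76 for Ifit1 (edgeR adjusted p = 0.0143) and 0.60 for Ifit3 (edgeR adjusted p = 0.0131). Neither was called without young replicates 5 and 6 (log2 fold change 1.17, edgeR adjusted p = 0.066 for Ifit1 and 1.2, 0.103 for Ifit3). Ifit2, the most abundant of the family per exon length in young mice, had 9.29 to 21.9 CPM in aged and 11.6 to 18.3 CPM in young mice (log2 fold change -0.08 ± 0.18, edgeR adjusted p = 0.746).

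The OAS enzymes make a short form of oligoadenylate that activates an RNA-cutting nuclease. They lie on chromosome 5. Oas3 was the most abundant of them per exon length, with 69.3 CPM per kilobase in aged and 41.8 in young mice. It lay at 238 to 556 CPM in aged and 149 to 229 CPM in young mice (medians 293 and 209), and no aged mouse was as low as a young one. The level rose 1.66-fold (log2 fold change 0.73 ± 0.18, edgeR adjusted p = 0.00476), and its log2 value was 0.52 without aged replicate 5 (edgeR adjusted p = 0.0038). Oas1a rose most, 2.36-fold, from 3.90 to 5.43 CPM in young mice (median 4.42) to 5.87 to 23.7 CPM in aged mice (median 8.19), again with no overlap (log2 fold change 1.24 ± 0.30, edgeR adjusted p = 0.00396). Near-identical Oas1 copies stand beside it, and only fragments that fitted 1 place were counted.

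The OAS-like members and Oas2 varied more between mice. Oasl2 lay at 47.8 to 173 CPM in aged and 37.4 to 53.1 CPM in young mice (log2 fold change 0.82 ± 0.26, edgeR adjusted p = 0.0176). Its value was 0.47 without aged replicate 5 (edgeR adjusted p = 0.0218), and its call was lost without young replicates 5 and 6 (log2 fold change 0.67, edgeR adjusted p = 0.101). Oasl1, an inhibitor of Irf7 translation, lay at 8.07 to 35.7 CPM in aged and 6.07 to 10.3 CPM in young mice (log2 fold change 0.93 ± 0.33, edgeR adjusted p = 0.0293), and was not called without aged replicate 5 (0.47, edgeR adjusted p = 0.0511) or without young replicates 5 and 6 (0.76, edgeR adjusted p = 0.141). Oas2 went the other way in value without being called, at 12.1 to 32.0 CPM in aged and 15.2 to 42.5 CPM in young mice (log2 fold change -0.54 ± 0.31, edgeR adjusted p = 0.168). Young replicates 5 and 6 had 42.5 and 41.7 CPM of Oas2 and the other 4 young mice 15.2 to 19.3 CPM, and without that pair the log2 fold change was 0.06. Aged replicate 5 had the highest aged value, and without it Oas2 was called lower (log2 fold change -0.80, edgeR adjusted p = 0.0389). Oas1g had 6 to 20 counts in aged and 1 to 9 counts in young mice and was not tested.

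**Figure D2:**
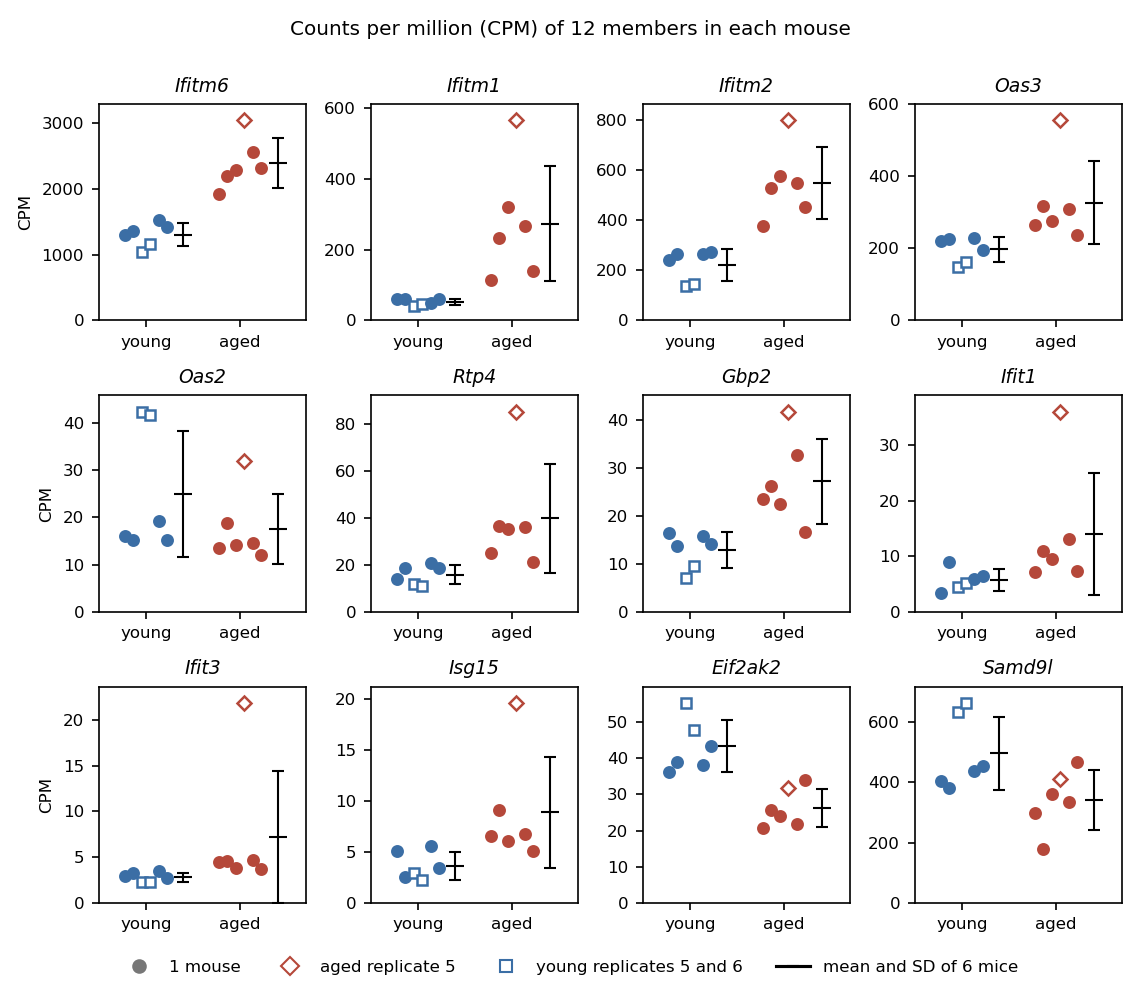
CPM of 12 members in each of 6 young mice (blue) and 6 aged mice (red), with the mean and SD of each group beside the points (the lower bar of Ifit3 ends at 0); the open diamond is aged replicate 5 and the open squares are young replicates 5 and 6. Aged replicate 5 reached 566 CPM of Ifitm1 and 21.9 CPM of Ifit3, above every other mouse, while Eif2ak2 was lower in all aged mice (20.6 to 33.8 CPM) than in any young mouse (36.3 to 55.4 CPM).

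Large interferon-induced GTPases gave mixed results. Gbp2, a guanylate-binding protein that coats pathogen vacuoles, rose 2.16-fold. It lay at 16.6 to 41.7 CPM in aged and 6.93 to 16.4 CPM in young mice (medians 24.8 and 13.9), with no overlap (log2 fold change 1.11 ± 0.23, edgeR adjusted p = 0.00155). Gbp7 had 13 to 25.7 CPM in aged and 20.1 to 26.1 CPM in young mice (log2 fold change -0.29 ± 0.14, edgeR adjusted p = 0.0986), and was called lower once aged replicate 5 was left out (log2 fold change -0.41, edgeR adjusted p = 0.0131). Gbp3 had 10 to 36 counts in aged and 2 to 9 counts in young mice. It was below the filter, and when no filter was applied it was called higher (log2 fold change 1.44, edgeR adjusted p = 0.0166).

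Mx1, a GTPase that traps viral nucleocapsids, fell on very few counts, with 0 to 15 fragments in each of the aged mice and 5 to 36 in each of the young. This came to 0 to 1.67 CPM in aged and 0.975 to 3.66 CPM in young mice (log2 fold change -1.84 ± 0.56, edgeR adjusted p = 0.0155). The highest young values were those of replicates 5 and 6, and without them the log2 fold change was -1.12 (edgeR adjusted p = 0.198). Laboratory strains such as C57BL/6 carry a defective Mx1. Mx2 had at most 12 counts in any mouse and was not tested.

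The IFITM family held the largest rise of the set. IFITM proteins sit in cell and endosome membranes and keep viral envelopes from fusing with them. Their genes form a cluster on chromosome 7, and 4 of its members are in the set. All 4 rose, and for each of them every aged mouse exceeded every young mouse. Ifitm1 rose most of all members, 5.23-fold, from 40.1 to 60.7 CPM in young mice (median 54.3) to 115 to 566 CPM in aged mice (median 251; log2 fold change 2.39 ± 0.31, edgeR adjusted p = 6.71e-05). Aged replicates 1 and 7 were the lowest of the aged group, at 115 and 139.5 CPM, and still lay above all young mice. Leaving out aged replicate 5 gave 2.04 on that scale (edgeR adjusted p = 5.66e-05).

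Ifitm6, which is expressed mainly in bone marrow myeloid cells, was the most abundant member of the whole set per exon length, at 4425 CPM per kilobase in aged and 2407 in young mice. It lay at 1924 to 3049 CPM in aged mice (median 2313) and 1041 to 1524 CPM in young mice (median 1331). The difference was 1.84-fold with the smallest error of the family (log2 fold change 0.88 ± 0.11, edgeR adjusted p = 6.68e-05). Ifitm2 rose 2.49-fold, from 136 to 274 CPM (median 252) to 378 to 799 CPM (median 539; log2 fold change 1.31 ± 0.20, edgeR adjusted p = 0.000194). Ifitm3 rose 1.74-fold, from 152 to 238 CPM to 274 to 533 CPM (medians 224 and 349; log2 fold change 0.80 ± 0.15, edgeR adjusted p = 0.000857). The IFITM genes are short, with 541 to 840 bases of exon, and the correction for exon length took Ifitm3 to 0.30 (edgeR adjusted p = 0.0831) and Ifitm6 to 0.32 (edgeR adjusted p = 0.0302), while Ifitm1 fell to 1.96 and Ifitm2 to 0.83 and both were still called.

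The 4 IFITM genes took more fragments than the other 35 tested members together in each aged mouse, and fewer in each young mouse. Their summed level was 2711 to 4946 CPM in aged mice and 1370 to 2067 CPM in young mice. The other 35 summed to 2192 to 3924 CPM in aged mice and 2128 to 2333 CPM in young mice, and only 4 of the 6 aged mice lay above the highest young mouse. Bst2, which encodes tetherin, a protein that holds budding virions at the cell surface, was scarce, with 7 to 27 counts in aged and 2 to 16 counts in young mice (log2 fold change 0.44 ± 0.35, edgeR adjusted p = 0.314).

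ISG15 is a ubiquitin-like protein that is attached to other proteins, and USP18 removes it and blocks the interferon receptor. Isg15 rose 2.46-fold on a low level, from 2.24 to 5.54 CPM in young mice (median 3.18) to 5.13 to 19.7 CPM in aged mice (median 6.69; log2 fold change 1.30 ± 0.34, edgeR adjusted p = 0.00647). The lowest aged mouse lay below 1 young mouse, and leaving out aged replicate 5 gave a value of 0.89 (edgeR adjusted p = 0.00897). Usp18 lay at 5.13 to 26.1 CPM in aged and 4.33 to 7.22 CPM in young mice (log2 fold change 0.97 ± 0.34, edgeR adjusted p = 0.0313). Aged replicate 5 held 26.1 CPM and the next aged mouse 9.08 CPM, and the call was lost without it (log2 fold change 0.46, edgeR adjusted p = 0.0528) and also without young replicates 5 and 6 (0.89, edgeR adjusted p = 0.114). Herc6, the ligase that attaches ISG15 in mice, had 9.08 to 21.8 CPM in aged and 8.35 to 13.3 CPM in young mice (log2 fold change 0.30 ± 0.20, edgeR adjusted p = 0.218). Its value was 0.087 without aged replicate 5.

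Enzymes that act on RNA, DNA or nucleotides moved in both directions. Eif2ak2, which encodes PKR, a kinase that halts translation when it binds double-stranded RNA, was the clearest fall of the set. It lay at 20.6 to 33.8 CPM in aged mice (median 24.8) and 36.3 to 55.4 CPM in young mice (median 41.2), so that no aged mouse reached a young one. The level was 1.65-fold lower (log2 fold change -0.72 ± 0.14, edgeR adjusted p = 0.000828), and on the log2 scale it stood at -0.78 once aged replicate 5 was left out and at -0.59 without young replicates 5 and 6. Rsad2, which encodes viperin, an enzyme that makes a chain-terminating nucleotide, lay at 35.2 to 123 CPM in aged and 27.7 to 42.9 CPM in young mice (medians 48.1 and 35.4; log2 fold change 0.74 ± 0.25, edgeR adjusted p = 0.0257). For Rsad2 the value was 0.39 without aged replicate 5 (edgeR adjusted p = 0.0311) and the call was lost without young replicates 5 and 6 (0.62, edgeR adjusted p = 0.124). Its neighbour on chromosome 12, Cmpk2, which can supply the nucleotide for that reaction, was the most abundant of these enzymes per exon length. It had 124 to 229 CPM in aged and 118 to 152 CPM in young mice (log2 fold change 0.27 ± 0.12, edgeR adjusted p = 0.0907).

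Trex1, an exonuclease that clears DNA from the cytosol, rose in the fit of all mice, at 9.07 to 24.7 CPM in aged and 6.03 to 11.2 CPM in young mice (log2 fold change 0.65 ± 0.23, edgeR adjusted p = 0.0316). It was not called without aged replicate 5 (log2 fold change 0.37, edgeR adjusted p = 0.0603) or without young replicates 5 and 6 (0.60, edgeR adjusted p = 0.116). Isg20, an RNA exonuclease, had a log2 fold change of 0.56 ± 0.24 (edgeR adjusted p = 0.0646), and 0.30 without aged replicate 5 (edgeR adjusted p = 0.173). It was called higher in some other fits, among them upper quartile factors and those without aged replicate 7 or young replicate 9. Adar, which edits adenosines in double-stranded RNA, was nearly equal, with 115 to 166 CPM in aged and 123 to 130 CPM in young mice (log2 fold change 0.04 ± 0.08, edgeR adjusted p = 0.674). Young mice were held within a narrow band for Adar, and aged replicate 5 alone reached 166 CPM.

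**Figure D3:**
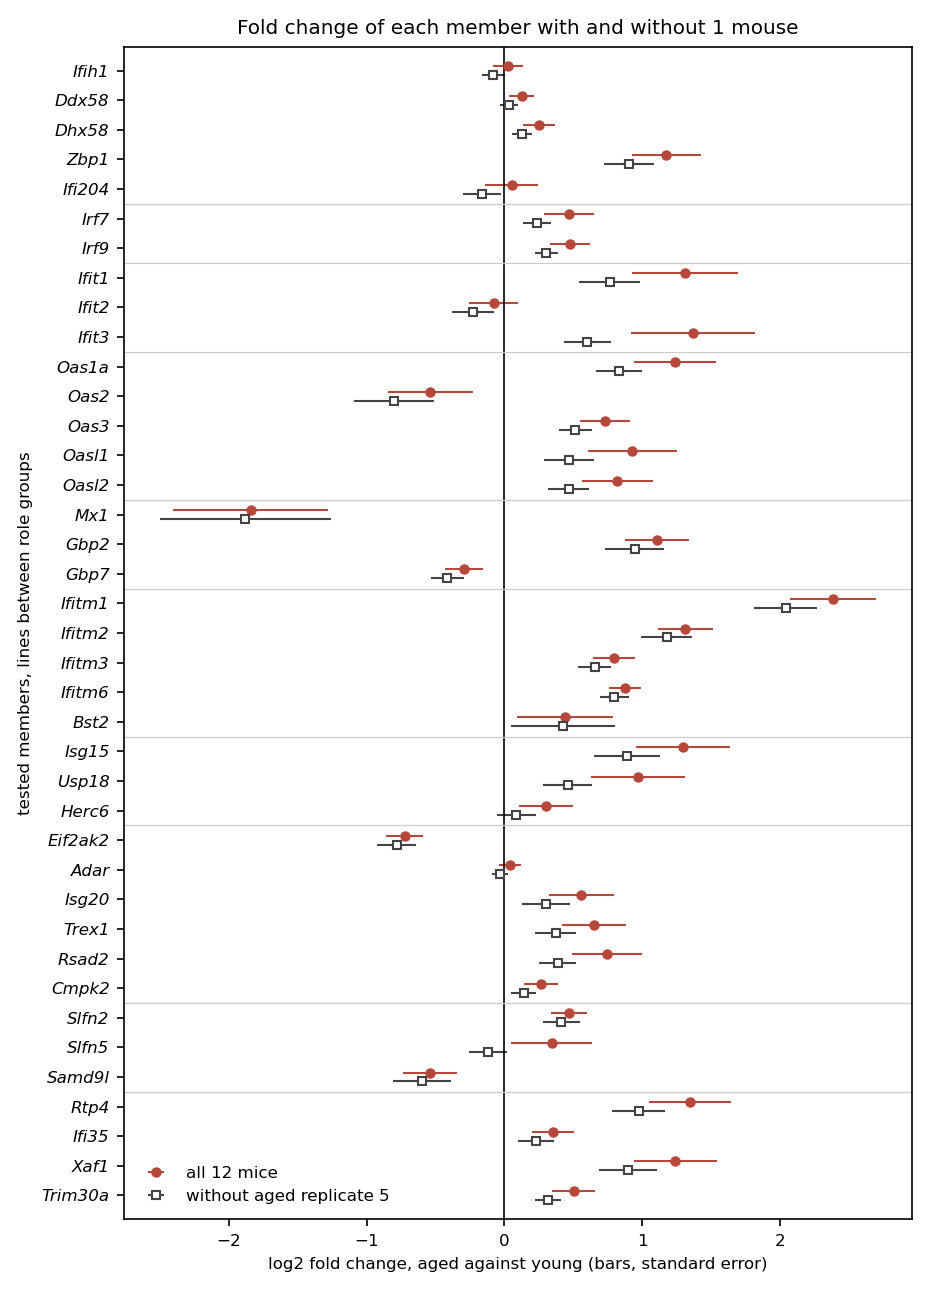
The log2 fold change of aged against young mice with its standard error (bars) is shown for the 39 tested members, from all 12 mice (filled) and without aged replicate 5 (open). Ifitm1 keeps the largest value in both fits (2.39 and 2.04), Ifit3 moves from 1.37 to 0.60, and Slfn5 moves from 0.34 to -0.12.

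In the Schlafen and SAMD9 family, whose members restrain viral translation and leukocyte growth, Slfn2 was the most abundant per exon length. It was called higher, Samd9l was called lower and Slfn5 was not called. Slfn2 lay at 627 to 894 CPM in aged mice (median 713) and 399 to 634 CPM in young mice (median 573), a 1.39-fold difference (log2 fold change 0.47 ± 0.13, edgeR adjusted p = 0.00939). Its lowest values, 399 and 418 CPM, were those of young replicates 5 and 6. Samd9l fell 1.46-fold, with 177 to 469 CPM in aged and 382 to 664 CPM in young mice (medians 348 and 447; log2 fold change -0.54 ± 0.20, edgeR adjusted p = 0.0358). The same pair of young mice was highest for Samd9l, at 635 and 664 CPM, and without it the call was lost (log2 fold change -0.32, edgeR adjusted p = 0.219). Slfn5 had 72.2 CPM in aged replicate 5 and 18.2 to 27.8 CPM in the other aged mice, beside 19.1 to 29.5 CPM in young mice (log2 fold change 0.34 ± 0.29, edgeR adjusted p = 0.357).

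The set was completed by 5 further induced genes. Rtp4, a chaperone of receptors that also regulates interferon responses, rose 2.55-fold, from 10.9 to 20.6 CPM in young mice (median 16.1) to 21.0 to 85.2 CPM in aged mice (median 35.4), with no overlap (log2 fold change 1.35 ± 0.30, edgeR adjusted p = 0.0022). Xaf1, which promotes apoptosis, rose 2.37-fold, from 1.5 to 2.93 CPM to 3.25 to 11.4 CPM, also with no overlap (medians 2.62 and 4.65; log2 fold change 1.24 ± 0.30, edgeR adjusted p = 0.00383). Both remained called without aged replicate 5, with log2 fold changes of 0.98 and 0.90. Trim30a, a negative regulator of inflammatory signalling and the highest of the group per exon length, lay at 90.1 to 203 CPM in aged and 77.3 to 97.5 CPM in young mice (log2 fold change 0.50 ± 0.16, edgeR adjusted p = 0.0167), with 0.32 on that scale without aged replicate 5 and no call without young replicates 5 and 6 (0.40, edgeR adjusted p = 0.0993). Ifi35, the partner of NMI, had a log2 fold change of 0.35 ± 0.15 (edgeR adjusted p = 0.0674). Ifi44 had at most 4 counts in any mouse and was not tested.

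Across the whole table, fold changes were lower for genes with longer exon sequence, and the same held for the members. Over all genes tested, Spearman's rho between exon length and log2 fold change was -0.48, and over the 39 tested members it was -0.62. These are correlations across genes, which share the same libraries. Of the 20 members with up to 2455 bases of exon, 15 were called higher and none lower, with a median log2 fold change of 0.90. Of all genes up to that length, 38.3% were called higher and 7.47% lower. Among the 19 longer members, 7 were called higher and 3 lower, with a median of 0.27, beside 708 and 1952 of 5885 longer genes over the whole table (12% and 33.2%). After the correction for exon length the median of all tested members was 0.33, and Adar (log2 fold change 0.33, edgeR adjusted p = 0.0112) and Ddx58 (0.32, edgeR adjusted p = 0.0197) were called higher. Irf7, Oasl1, Ifitm3, Usp18, Trex1, Slfn2 and Samd9l were not called in that fit.

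**Figure D4:**
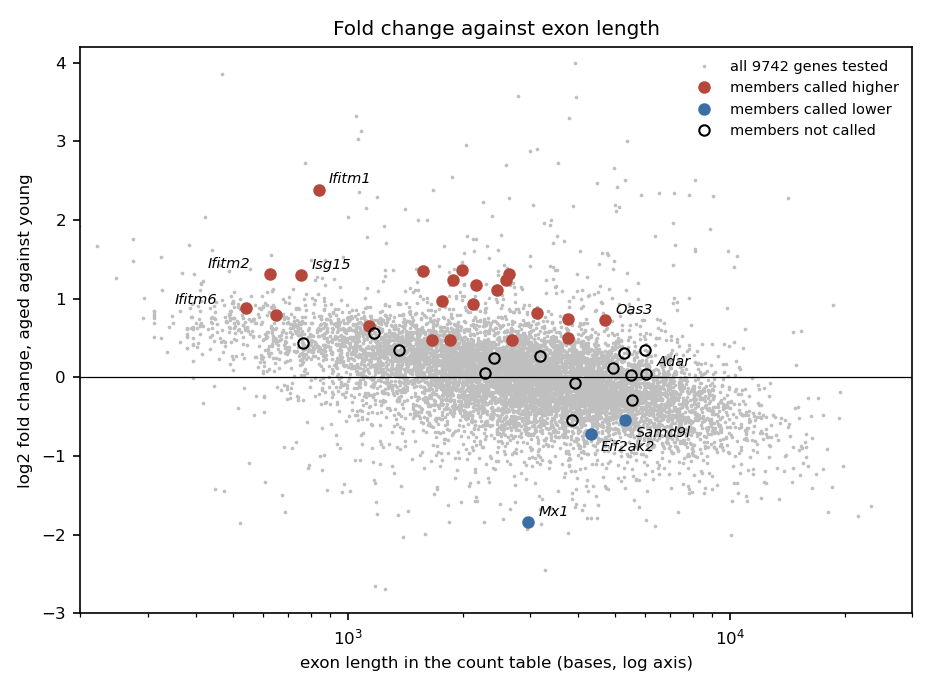
Log2 fold change against exon length (log axis) for all 9742 genes tested (grey) and for the members called higher (22, red), lower (3, blue) or not called (14, open). Grey points slope down with length, Ifitm1 is the highest member at 2.39, and Eif2ak2 and Mx1 lie below 0.

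Genes upstream of these targets were taken from a separate list. As ligands, 9 interferon genes (Ifnb1, Ifna1, Ifna2, Ifna4, Ifnk, Ifne, Ifnl2, Ifnl3 and Ifng) were listed, and 8 of them had 0 counts in all 12 mice, while Ifne had at most 1 count. A count of 0 allows up to 3 counts, or 0.188 to 0.642 CPM depending on the mouse. Fragments that fit more than 1 place were not counted, so this limit does not hold for ligand genes with close copies, such as the Ifna genes. Of 47 signalling genes, 37 were tested, 5 were called higher (13.5%, beside 22.4% of all genes) and 11 lower (29.7%, beside 23.0% of all genes), and their median log2 fold change was 0.01. With the correction for exon length 8 were called higher and 5 lower, where 18.4% and 16.5% of all genes were.

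Receptors were present in all mice. Ifnar2, the high-affinity chain of the type I receptor, rose slightly, from 96.8 to 115 CPM in young mice to 118 to 136 CPM in aged mice, with no overlap (log2 fold change 0.26 ± 0.06, edgeR adjusted p = 0.00388). Ifngr1, which binds interferon gamma, rose 1.4-fold, from 82.2 to 125 CPM to 121 to 159 CPM (log2 fold change 0.49 ± 0.10, edgeR adjusted p = 0.00108). Ifnlr1, the specific chain of the interferon lambda receptor, fell 1.63-fold, from 178 to 257 CPM to 114 to 146 CPM, with no overlap (log2 fold change -0.70 ± 0.10, edgeR adjusted p = 0.000154). Ifnar1, Ifngr2 and Il10rb were not called. With the correction for exon length Ifnar1 turned from -0.075 to 0.28 on the log2 scale and was called higher (edgeR adjusted p = 0.0078).

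The receptor kinases were called lower. Jak2 had the smallest p of this group, with 77.0 to 92.5 CPM in aged and 98.3 to 113 CPM in young mice (log2 fold change -0.31 ± 0.07, edgeR adjusted p = 0.00186). Tyk2 had the largest fall (log2 fold change -0.36 ± 0.11, edgeR adjusted p = 0.0171), which was -0.18 and not called without young replicates 5 and 6 (edgeR adjusted p = 0.101), and Jak1 fell as well (-0.20 ± 0.06, edgeR adjusted p = 0.018). These kinase genes have 4873 to 5299 bases of exon, and none of the 3 was called after the correction for exon length. Stat2 had a log2 fold change of -0.26 ± 0.13 (edgeR adjusted p = 0.114), and it was called lower without aged replicate 5 (-0.37, edgeR adjusted p = 0.0154), which had 48.2 CPM with the other aged mice at 36.7 CPM or less.

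Upstream sensors and adaptors changed in both directions. Traf3, an adaptor that links sensors to interferon production, fell 1.83-fold, from 98.6 to 141 CPM in young mice to 57.4 to 77.1 CPM in aged mice, with no overlap and the smallest p of the pathway (log2 fold change -0.87 ± 0.10, edgeR adjusted p = 2.55e-05). Tmem173, which encodes STING, the adaptor of cytosolic DNA sensing, rose 1.85-fold, from 4.27 to 6.44 CPM to 6.64 to 13.5 CPM (log2 fold change 0.88 ± 0.17, edgeR adjusted p = 0.00111). Mb21d1, which encodes cGAS, the enzyme upstream of STING, fell (log2 fold change -0.68 ± 0.19, edgeR adjusted p = 0.00893), but not without young replicates 5 and 6 (-0.52, edgeR adjusted p = 0.0708). Myd88 and Unc93b1, which serve the endosomal Toll-like receptors, were also called higher. Among kinases and factors, Tbk1 (-0.18 ± 0.06) and Ikbke (-0.52 ± 0.20), which phosphorylate IRF3, were called lower and none of 7 was called higher, and neither was called without young replicates 5 and 6 (log2 fold change -0.14 for each). Leaving out each mouse in turn, Tbk1 lost its call in 5 of 12 fits and Ikbke in 7, among them the fit without aged replicate 5. In the group of inhibitors, Rnf125, Ptpn2 and Ptpn11 were called lower of 9 genes. Rnf125 had the smallest p and the largest fall (log2 fold change -0.41 ± 0.11, edgeR adjusted p = 0.00817). Ptpn2, singled out after its values were seen, turned from -0.20 to 0.23 after the correction for exon length and was called higher there (edgeR adjusted p = 0.0298). Ptpn11 turned from -0.19 to 0.05 in that fit and was not called (edgeR adjusted p = 0.469). The 5 signalling genes that rose, Ifnar2, Ifngr1, Tmem173, Unc93b1 and Myd88, were called in all 4 fits, where 9.80% of all genes were called higher, as were 3 of the 11 that fell, Ifnlr1, Traf3 and Rnf125, where 10.9% of all genes were called lower.

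**Figure D5:**
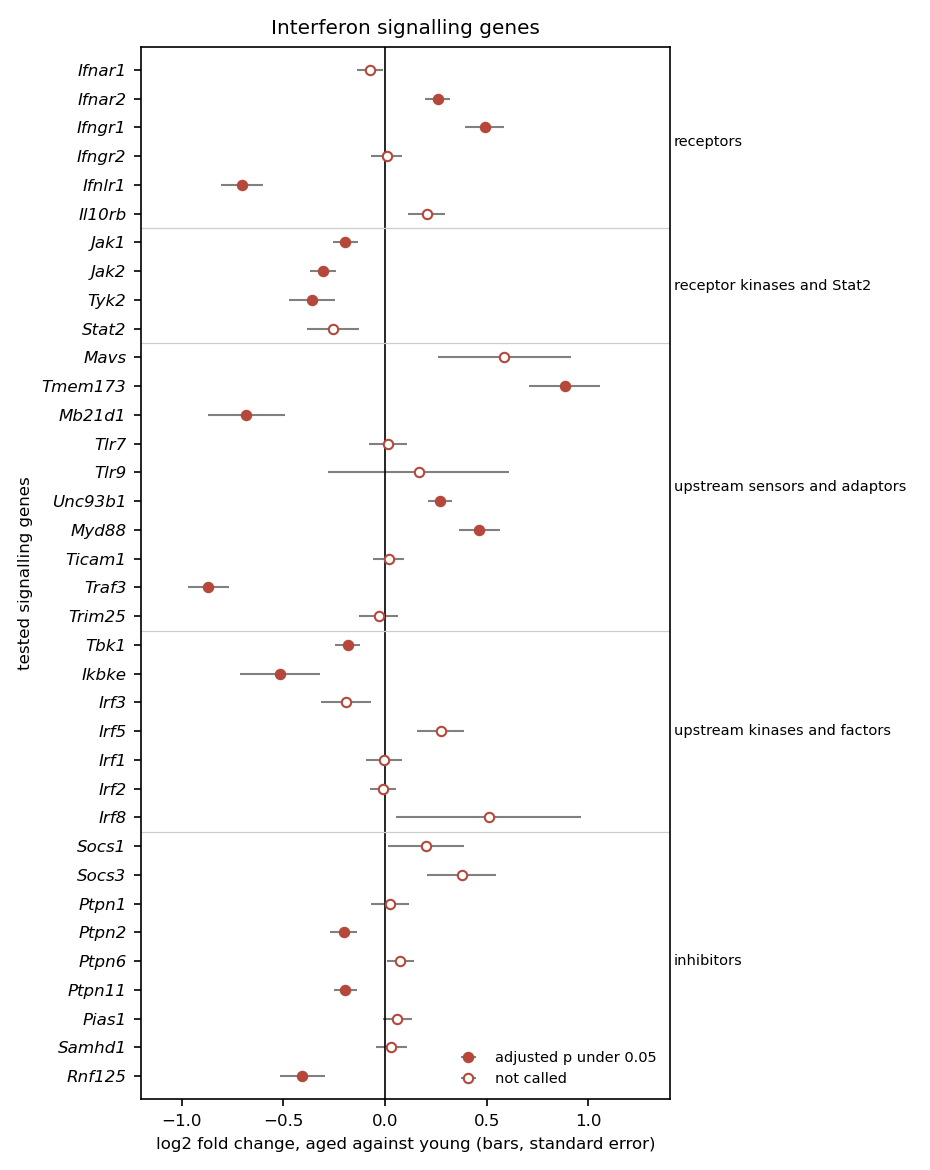
Log2 fold change of aged against young mice with its standard error for tested signalling genes, ordered by role (filled, edgeR adjusted p under 0.05). Traf3 (-0.87) and Ifnlr1 (-0.70) lie farthest to the left, with Tmem173 (0.88) farthest to the right.

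A further list of 62 interferon-induced genes outside the set was examined in the same fit. Of the 61 found in the table, 49 were tested, 20 were called higher (40.8%, beside 22.4% of all genes) and 6 lower (12.2%, beside 23.0%), and their median log2 fold change was 0.18. Without young replicates 5 and 6, 13 were called higher and 3 lower, where 14.1% and 17.9% of all genes were, with a median of 0.28. The median was 0.077 without aged replicate 5 and 0.0018 without aged replicates 1 and 5. Of 6 tested GTPases, 4 were called higher, all of the immunity-related kind that attacks the vacuoles of intracellular pathogens. Ifi47 rose 2.26-fold, from 5.85 to 7.49 CPM in young mice to 10 to 23.2 CPM in aged mice, with no overlap (log2 fold change 1.17 ± 0.19, edgeR adjusted p = 0.000283; 1.02 without aged replicate 5), and the other 3 were Irgm1, Irgm2 and Igtp, of which Irgm2 was not called without young replicates 5 and 6 (0.44, edgeR adjusted p = 0.053). In the PARP and ligase group, Ube2l6, the enzyme that carries ISG15 to its ligase, rose 1.73-fold (log2 fold change 0.79 ± 0.10, edgeR adjusted p = 6.71e-05), and Parp11 fell (-0.39 ± 0.11, edgeR adjusted p = 0.0109). Slfn1, a Schlafen gene that restrains T-cell growth, rose from 308 to 356 CPM to 412 to 763 CPM (log2 fold change 0.69 ± 0.13, edgeR adjusted p = 0.000662).

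Of 4 tested relatives of the IFIT and OAS members, 2 were called higher and none lower. I830012O16Rik, a near copy of Ifit3 beside it on chromosome 19, lay at 2.44 to 17.1 CPM in aged and 0.65 to 3.42 CPM in young mice, with the highest value again in aged replicate 5 (log2 fold change 1.59 ± 0.51, edgeR adjusted p = 0.0199). It stood at 0.81 without aged replicate 5 (edgeR adjusted p = 0.0408) and was not called without young replicates 5 and 6 (1.26, edgeR adjusted p = 0.107). Oas1c rose with no overlap (log2 fold change 0.55 ± 0.15, edgeR adjusted p = 0.00769). In the IFI200 group of DNA-binding proteins, no gene was called higher, and Ifi203 (-1.13 ± 0.34) and Mndal (-1.28 ± 0.46) were called lower on low counts. Neither was called without young replicates 5 and 6 (-0.61 and -0.64). Without aged replicate 5 Mndal kept its value but not its call (-1.29, edgeR adjusted p = 0.0528). Among the remaining 18 tested genes 8 were called higher and 2 lower. Ly6e, whose protein controls the entry of several viruses, rose 2.28-fold (log2 fold change 1.19 ± 0.17, edgeR adjusted p = 9.95e-05). Ly6a, which encodes Sca-1, had the largest rise at a low level, 0.438 to 9.69 CPM in aged and 0.231 to 1.4 CPM in young mice (log2 fold change 2.03 ± 0.64, edgeR adjusted p = 0.0176). The 9.69 CPM was that of aged replicate 1, without which the value was 1.29 (edgeR adjusted p = 0.0471), and the call was lost with limma-voom (1.44, adjusted p = 0.11), with the correction for exon length (1.63, edgeR adjusted p = 0.0568) and without aged replicates 1 and 5 (1.30, edgeR adjusted p = 0.0751). Helz2 fell (-0.31 ± 0.11, edgeR adjusted p = 0.0268) but was not called without young replicates 5 and 6 (-0.21, edgeR adjusted p = 0.131) or in 5 of the 12 fits without 1 mouse, and stood at 0.22 after the correction for exon length.

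Outside the 3 lists, Lin7c, Psmb2 and Sertad3 followed the mean log2 level of the 35 tested members with at least 5 CPM most closely over the 12 mice, each with a Spearman's rho of 0.993, a description that includes the difference between the ages.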

How the data were processed

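RNA from sorted M-MDSCs of 6 young and 6 aged mice was analysed from gene counts. The authors deposited raw counts of read pairs per gene from strand-specific, paired-end libraries, made with featureCounts 2.0.0 against the UCSC mm10 gene models. A mapping quality of at least 60 was required, which removes fragments that fit more than 1 place. Close paralogs are therefore uncertain, among them Ifit3, Oas1a and the IFITM, GBP and Ifna genes. The aligner is not given in the sources used here. The file headers give the young libraries lower sample numbers than the aged ones throughout. What these numbers stand for is not stated, and any order they mark cannot be told apart from age.

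From these counts, edgeR 4.0.16 (R 4.3.3) was run with TMM factors, its default filter on low counts and the quasi-likelihood test, two-sided, with Benjamini-Hochberg adjustment over 9742 genes and a threshold of 0.05. CPM values are counts divided by TMM-scaled library totals. The smallest chi-square per gene between any pair of mice of 1 age was 1.68, so no library was a copy of another of its age. The model fits were tested on simulated counts. Members, gene lists and marker lists were chosen with earlier results of these data known. Named by a fixed rule were all members, and in each role of the other lists the called genes with the smallest p, the largest rise and the largest fall. Some further genes were named outside this rule, among them Ifnar1, Ifnar2, Jak1, Stat2 and Mb21d1. Alternatives were DESeq2 1.42.0, limma-voom (limma 3.58.1), other scalings and filters, thinning, exon length offsets, a replicate block and leaving out mice. The values of 1 signalling gene are not reported here. Each library came from a separate animal, so p-values measure the spread between mice.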

Additional observations from a re-analysis of the deposited data

Results flagged for a closer look

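In 168 groups of 6 mice (each gene in each age), 36 had 1 mouse farther from the rest than Dixon's limit for 6 samples, where chance marks about 5% of groups. Of these, 24 were members with aged replicate 5 as the highest aged mouse. Its levels in CPM were 44.8 for Ifih1, 161 for Ddx58, 41.7 for Dhx58, 30.8 for Zbp1, 114 for Irf7, 156 for Irf9, 36.1 for Ifit1 and 21.9 for Ifit3. In the OAS family it had 23.7 CPM of Oas1a, 32.0 of Oas2, 556 of Oas3, 35.7 of Oasl1 and 173 of Oasl2. It also had 533 CPM of Ifitm3, 19.7 of Isg15, 26.1 of Usp18, 21.8 of Herc6, 22.4 of Isg20, 24.7 of Trex1 and 123 of Rsad2. The last of these members were Slfn5 at 72.2 CPM, Rtp4 at 85.2, Xaf1 at 11.4 and Trim30a at 203. Outside the set, I830012O16Rik stood at 17.1 CPM in the same mouse.

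Among young mice, replicate 1 stood apart for Ddx58 (119.8 CPM, high) and Bst2 (0.390 CPM, low), and replicate 2 for Adar (123 CPM, low). Aged replicate 1 stood apart with 9.69 CPM of Ly6a, 25.3 of Treml4 and 43.5 of Cd36. Aged replicate 7 had 3476 CPM of Itgam, 375 of Top2a and 173 of Mki67. Young replicate 6 had 104.8 CPM of Nr4a1 and 8.95 of Ace.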

How the results depend on the processing

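Leaving out each mouse in turn, the number of genes called ran from 3804 (without young replicate 5) to 4704 (without aged replicate 7), members called higher from 17 to 24, members called lower from 2 to 5 and the members' median log2 fold change from 0.37 to 0.59. Signalling genes gave 5 to 7 higher, 8 to 11 lower and a median of -0.02 to 0.03, and the other induced genes 17 to 20 higher, 4 to 9 lower and a median of 0.08 to 0.28. In every one of these 12 fits 17 of the 22 risen members and 2 of the 3 fallen ones stayed called. The matching share of all called genes was not computed, so these counts do not set the members apart. Members called higher numbered 23 with DESeq2, 17 with limma-voom, 20 with library totals alone, 26 with upper quartile factors, 22 with at least 10 counts in every mouse, 23 with no filter and 22 after thinning. Over all genes, 4731, 4358, 4447, 4512, 4271, 4466 and 3943 were called in these fits, in the same order, and 4425 in the main fit. Library totals alone moved the signalling median to -0.077 together with the median of all genes (0.0062 to -0.081), and thinning left 3 other induced genes lower. With offsets for exon length, 8 signalling genes were higher and 5 lower, and Helz2 (0.22), Runx2 (0.17) and Camp (-0.036) changed sign; the cause was not tested. Without young replicates 5 and 6, chosen after seeing the data, 12 members were higher and 1 lower, 7 signalling genes were lower, and 13 other induced genes were higher and 3 lower. Without aged replicates 1 and 5, also chosen after seeing the data, 7 signalling genes were lower. Replicate numbers 1, 2, 5 and 6 occur in both ages but belong to different mice, and same-numbered mice had correlations of -0.14, -0.07, -0.24 and -0.25, so they do not form pairs. A replicate block over these 8 mice gave 3446 genes called against 4394 without it, 16 members higher against 22, 6 signalling genes lower and 2 other induced genes lower. Low members (Mx1, Bst2 and the 5 not tested) rest on few counts.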
